A study of Homo sapiens with 3 samples.

Results

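The lysosome genes of HCT116 cells were described in a control library and under shRNA against the circular RNA circRAPGEF5. Members were the genes whose deposited KEGG pathway names include Lysosome, leaving out genes that also carry Oxidative phosphorylation and genes whose symbol begins with SLC. This took 108 of the 15625 genes in the table. Of 120 genes with the Lysosome entry, 9 proton pump genes were left out by the Oxidative phosphorylation entry and 3 solute carriers by their symbol. HCT116 is an established human colorectal cancer cell line, and the labels give all 3 libraries the genotype MT without saying what it stands for. The groups were sh_control (1 library) and sh_circRAPGEF5 (2 libraries, called knockdown libraries 1 and 2 here). All cells had been transfected with a purchased shRNA system and collected at 36 or 48 h, with no time assigned to a library. Nothing in the labels says whether the knockdown libraries came from separate cultures or from different hairpins, so the spread between them may be technical. No reading of the circular RNA itself was analysed here.

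Lysosomes are acidic organelles in which hydrolases break down proteins, sugars, lipids and nucleic acids delivered by endocytosis and autophagy. Most luminal hydrolases receive a mannose 6-phosphate tag in the Golgi, bind a sorting receptor, and leave in clathrin-coated carriers built with the AP and GGA adaptors. Many lysosomal promoters carry a palindromic E-box, the CLEAR element, which is bound by the transcription factors TFEB and TFE3, and these factors answer to nutrient signaling through mTORC1.

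Levels are in FPKM, which scales the fragments of a gene by its length and by the size of the library. FPKM does not correct for a shift in the make-up of the RNA between libraries. The smallest whole reads behind them summed to between 14632390 and 15758794 per library. Differences from the control are on the scale log2(FPKM + 1), which understates the change of weakly expressed genes. Of the epithelial markers EPCAM, CDH1, KRT8, KRT18 and KRT19, all 5 were well above the filter, with summed levels of 2281 FPKM (control), 2548 (library 1) and 3876 (library 2). In bulk RNA, fewer cells of a type and less RNA per cell cannot be told apart.

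HCT116 cells expressed most of the lysosomal gene set. At 1 FPKM or more were 101 of the 108 members in the control, 98 in library 1 and 97 in library 2. The median member level was 12.1 FPKM in the control, 10.5 in library 1 and 11.8 in library 2. In the control the most abundant members were LAPTM4B, a lysosomal membrane protein (218 FPKM in the control, 188 in library 1 and 164 in library 2), PSAP, the precursor of the saposins that present sphingolipids to hydrolases (210, 254 and 180), and LAMP1, a main glycoprotein of the lysosomal membrane (162, 120 and 105). Of the 108 members, 98 had a mean of at least 1 FPKM over the 3 libraries and were tested. The other 10 were ACP5, AP3B2, AP3S2, ARSB, CTSE, CTSO, CTSS, DNASE2B, LAMP3 and PSAPL1.

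Under circRAPGEF5 knockdown, 10 of 17 tested genes grouped as glycosidases, 5 of 6 sulfatases and 10 of 17 membrane proteins were lower in both. Of all genes tested, 37.6% were lower in both libraries. Above the control in both were 3 of that glycosidase group, 1 sulfatase and 6 membrane proteins. Cathepsin L, CD68, clathrin heavy chain and the AP-1 subunits AP1G1 and AP1S1 were at least 1.5-fold above the control in both. No member passed the test. limma with Benjamini-Hochberg adjustment over all 11216 genes called 0 of the 98 members (0 higher and 0 lower, against 0.0178% of all genes called higher and 0% called lower). The members' adjusted p-values ran from 0.499 for CTSL to 0.997 for PSAP. Without adjustment, 9 of 98 members (9.18%) had p under 0.05, against 7.07% of all genes tested. These were CTSL, CD68, TPP1, MAN2B1, AP1S1, AP1G1, LAPTM4A, CLTC and GGA2. With 3 ways to pick the control among 3 libraries, the smallest p of an exact permutation test is 0.33.

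The direction of the tested members leaned to lower values. Of 98, 44 (44.9%) were below the control in both knockdown libraries, where 37.6% of all genes tested were. Above the control in both were 29 (29.6%), against 31.7% of all genes, and 25 (25.5%) lay on opposite sides, against 30.7%. The median log2 difference of the members was -0.16 in library 1, -0.22 in library 2 and -0.19 for their mean, beside -0.04, -0.04 and -0.05 over all genes tested. With the libraries rescaled by median ratios, 40 members were below the control in both and 34 above. The shares of all genes were not counted under this rescaling, which moved the median of all genes from -0.05 to 0.03. The members' median relative to all genes was -0.144 with and without this rescaling. Because the rescaling divides a whole library by a constant, it can hardly move a relative median. With quantile normalization the relative median was -0.215. Both knockdown differences share the control library, so these counts describe the 3 libraries and carry no test. On this log2(FPKM + 1) scale, at least 1.5-fold lower in both were 9 tested members (9.18%, against 7.40% of all genes), and at least 1.5-fold higher in both were 5 (5.10%, against 5.52%). These shares lie near the background. Of 7 fibroblast markers 3 had values, and their summed level, mostly COL1A1, was 14.04 FPKM in the control, 4.71 in library 1 and 8.49 in library 2; its part in these counts was not tested. With the libraries rescaled by median ratios the 1.5-fold split was 5 lower and 6 higher, with no share of all genes counted. At 2-fold in both, 1 member was higher (1.02%, against 1.21%) and 0 were lower (against 1.70%).

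**Figure D1:**
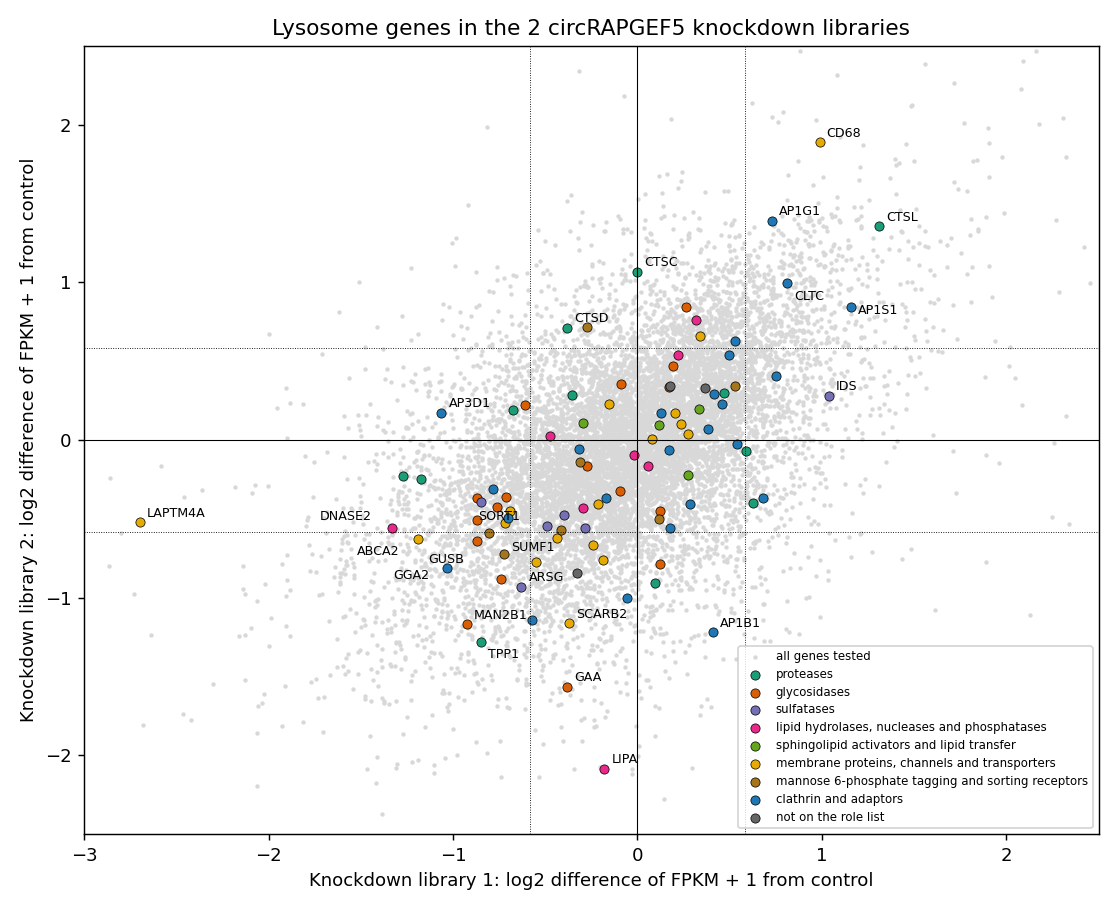
Log2 difference of FPKM + 1 from the control in library 1 (x axis) and knockdown library 2 (y axis) for the 98 tested lysosome genes, coloured by role, over all 11216 genes tested in grey; dotted lines mark 1.5-fold and genes outside the axes are not drawn. CTSL, CD68, AP1G1, AP1S1 and CLTC lie beyond 1.5-fold at the upper right, and LAPTM4A and LIPA lie far from the control in 1 library each.

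The promoters show which members carry the CLEAR palindrome that TFEB and TFE3 are known to bind. RefSeq promoters of 300 bases on GRCh38.p14 (250 before to 50 after the start) matched 81 members by Entrez number. The motifs searched were CACGTG, TCACGTGA, and a 10-base form made of TCACGTGA with a G before it and a C after it. Each reads the same on both strands, and each longer one contains the shorter. CACGTG was in 17 of the 81 promoters (21.0%, against 7.43% of 27305 promoters), TCACGTGA in 10 (12.3%, against 1.04%) and the 10-base form in 5 (6.17%, against 0.381%). The 10-base form was in GAA, GALNS, GNPTG, IGF2R and MCOLN1. Their sites are shown with 10 bases on each side, 5′ to 3′ on the gene's strand, with the palindrome in capitals, and LAMP1 is added as an example of the 8-base form.
GAA, upstream copy, chr17:80101493-80101522, plus strand: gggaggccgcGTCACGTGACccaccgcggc
GAA, downstream copy, chr17:80101538-80101567, plus strand: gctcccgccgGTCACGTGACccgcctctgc
GALNS, chr16:88857104-88857133, minus strand: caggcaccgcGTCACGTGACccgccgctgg
GNPTG, chr16:1351907-1351936, plus strand: ggtccccgtgGTCACGTGACcgtcacttca
IGF2R, chr6:159969042-159969071, plus strand: ccgggcggctGTCACGTGACgcggttccgg
MCOLN1, chr19:7522598-7522627, plus strand: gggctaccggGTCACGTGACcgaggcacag
LAMP1, chr13:113297200-113297227, plus strand: acccgcgggaTCACGTGAcgcccgggcg

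The GAA promoter held 2 copies of the 10-base form, and the IGF2R promoter held 3 copies of the 8-base form, 1 of them within the 10-base form. All 5 members with the 10-base form were below the control in both knockdown libraries, with a median log2 difference of -0.38 in library 1 and -0.57 in library 2. The 69 tested members whose promoters lacked it had medians of 0.06 and -0.06, with 27 below and 25 above the control in both. Over all tested genes with a matched promoter, 32 of 79 with the 10-base form were below in both (40.5%), against 37.2% of those without it. The 79 include these 5 members, and members were kept among all genes for each motif. Median log2 differences over all such genes were -0.01 and -0.13 with the 10-base form and -0.03 and -0.04 without it. For the 8-base form, 6 of 10 members were below in both and 2 above, while over all genes tested 37.1% with it and 37.2% without it were below in both. For CACGTG, 9 of 17 members were below in both and 3 above, and over all genes the shares below were 34.3% with it and 37.6% without. A match is a description of the sequence, and binding was not measured.

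TFEB and TFE3, the factors named for this element, gave no joint direction. TFEB mRNA was at 2.07 FPKM in the control, 2.31 in library 1 and 1.94 in library 2. TFE3 was at 12.9 FPKM in the control, 16.6 in library 1 and 7.10 in library 2, on opposite sides of the control. MITF and TFEC, their relatives, were below 0.5 FPKM in every library.

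Proteases divided, more than leaned, around the control. Of 12 tested, 2 were above the control in both libraries, 3 below, and 7 lay on opposite sides, with median log2 differences of -0.18 and 0.06. Of all genes tested, 31.7% were above in both, 37.6% below and 30.7% on opposite sides, and the difference was not tested. The same shares stand beside the counts of the other role groups and adaptor complexes below. The median of the protease means, 0.04, was -0.05 with quantile normalization. CTSL encodes cathepsin L, a cysteine endopeptidase (chromosome 9, 87725519 to 87731393 on GRCh38 in GENCODE 29). CTSL was at 22.3 FPKM in the control, 56.9 in library 1 and 58.8 in library 2. Both knockdown libraries were more than 2-fold above the control and close to each other, with a mean log2 difference of 1.33 ± 0.39 (SE) and a limma adjusted p of 0.499. TPP1, a tripeptidyl peptidase lost in a childhood neuronal ceroid lipofuscinosis, was at 52.6 FPKM in the control, 28.8 in library 1 and 21.0 in library 2. Its mean log2 difference was -1.07 ± 0.41 (SE; limma adjusted p 0.628).

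The abundant cathepsins separated the knockdown libraries. CTSD, the main aspartic protease, was at 73.9 FPKM in the control, 56.5 in library 1 and 122 in library 2. CTSA, which protects beta-galactosidase and neuraminidase, was at 57.7, 35.8 and 65.8 FPKM in the same order. CTSZ, a carboxypeptidase and the most abundant protease on average, was at 91.8, 71.4 and 112 FPKM. All 3 were below the control in library 1 and above it in library 2, while CTSB, cathepsin B, went the other way at 55.6, 84.0 and 53.0 FPKM. CTSC, which activates granule serine proteases, was at 4.76 FPKM in the control, 4.75 in library 1 and 11.1 in library 2. CTSO, a weakly expressed cysteine cathepsin, was at 1.84 FPKM in the control, 0.334 in library 1 and 0.511 in library 2, below the filter on its mean. CTSH and CTSV were lower mainly in library 1, with log2 differences of -1.27 and -1.17 there and -0.23 and -0.25 in library 2. LGMN, an asparaginyl endopeptidase, was above the control in both, at 0.47 and 0.30. In GENCODE 29, 54.9% of the exonic bases of CTSD also belong to another gene on the same strand, so its reads are uncertain.

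Glycosidases, which trim sugars from glycoproteins, glycolipids and glycosaminoglycans, were mostly lower. Of the 17 members grouped here, all tested, 10 were below the control in both libraries and 3 above. Median log2 differences were -0.38 and -0.37. This group counts HGSNAT, an acetyltransferase, with log2 differences of 0.12 and -0.78. It leaves out the glycosidases FUCA2 and HYAL3, above the control in both, and HYAL2, below it in both. MAN2B1, the lysosomal alpha-mannosidase, was at 29.1 FPKM in the control, 14.8 in library 1 and 12.4 in library 2. Its mean log2 difference was -1.05 ± 0.41 (SE; limma adjusted p 0.628). Other annotated genes on the same strand share 35.7% of the exonic bases of MAN2B1. GUSB, beta-glucuronidase, was at 19.1 FPKM in the control against 9.99 and 11.9. For MAN2B1 and GUSB both knockdown libraries lay at least 1.5-fold below the control.

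GAA, the acid alpha-glucosidase that degrades lysosomal glycogen, was the most abundant glycosidase on average. It stood at 58.3 FPKM in the control, 44.6 in library 1 and 19.0 in library 2, so the gap to the control was wide in library 2 (log2 difference -1.57) and narrower in library 1 (-0.38). MANBA, AGA, IDUA and NAGLU showed the reverse order, with log2 differences from -0.71 to -0.87 in library 1 and from -0.36 to -0.51 in library 2. Glycolipid hydrolases were less uniform. HEXA, the alpha subunit of beta-hexosaminidase A, was at 12.7, 11.8 and 9.93 FPKM, and GLA, alpha-galactosidase A, at 21.4, 23.4 and 15.4. GLB1, beta-galactosidase (10.5, 12.1 and 14.9 FPKM), NEU1, a sialidase, and HYAL1, a hyaluronidase, were the 3 of this group above the control in both.

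Sulfatases, which remove sulfate from glycosaminoglycans and sulfolipids, were lower in 5 of 6 tested members in both libraries. Their median log2 differences were -0.45 and -0.51. ARSG was at 5.40 FPKM in the control against 3.14 and 2.36, a mean log2 difference of -0.78 ± 0.44 (SE; limma adjusted p 0.772). ARSA, which acts on sulfatide, was at 4.20 against 1.89 and 2.96. GALNS and SGSH had mean log2 differences of -0.44 and -0.42. ARSB, below the filter, was at 1.14 FPKM against 0.552 and 0.935. IDS, iduronate sulfatase, was the exception at 10.9 FPKM in the control, 23.4 in library 1 and 13.4 in library 2. Another annotated gene on the same strand shares 17% of the exonic bases of IDS. SUMF1, which encodes the enzyme that activates all sulfatases in the endoplasmic reticulum, was at 7.59 FPKM in the control and 4.20 in each knockdown library, a mean log2 difference of -0.72 ± 0.43 (SE; limma adjusted p 0.801).

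Lipid hydrolases, nucleases and phosphatases split 2 above and 4 below the control in both libraries among 8 tested. LIPA, the acid lipase that hydrolyses cholesteryl esters and triglycerides, was at 19.8 FPKM in the control, 17.3 in library 1 and 3.90 in library 2. Only library 2 was far below the control, at a log2 difference of -2.08 against -0.18 in library 1. DNASE2, the acid DNase, was at 23.0 FPKM in the control, 8.53 in library 1 and 15.3 in library 2. PPT1, a palmitoyl-protein thioesterase and the most abundant gene of this group on average, was at 22.5, 26.4 and 33.2 FPKM, above the control in both. ASAH1, acid ceramidase, was at 26.5, 18.8 and 27.0, and SMPD1, acid sphingomyelinase, at 1.94, 2.06 and 1.62.

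Genes of lysosomal cholesterol export differed from the control by less than their standard error. NPC1, the membrane sterol transporter, was at 11.2 FPKM in the control, 14.3 in library 1 and 12.95 in library 2. NPC2, its soluble partner, was at 49.6, 53.7 and 53.1 FPKM. The log2 difference of NPC2 was 0.11 ± 0.39 (SE), and that of NPC1 0.26 ± 0.41 (SE). GM2A, the activator for GM2 ganglioside breakdown, was at 11.8, 9.41 and 12.8.

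Membrane proteins, channels and transporters were below the control in both libraries in 10 of 17 tested members and above in 6. Median log2 differences were -0.21 in library 1 and -0.45 in library 2. LAPTM4A (chromosome 2, 20032650 to 20052028), a small transmembrane protein of late endosomes and lysosomes, was at 132 FPKM in the control, 19.5 in library 1 and 91.6 in library 2. Its level in library 1 stood apart from the other libraries, and the mean log2 difference was -1.61 ± 0.67 (SE; limma adjusted p 0.653). Behind these values were at least 2938, 440 and 2191 reads. Its paralog LAPTM4B had log2 differences of -0.21 and -0.40. This makes LAPTM4A the member with the widest gap between the knockdown libraries, and without library 1 its log2 difference was -0.52.

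The main glycoproteins of the lysosomal membrane were lower in both libraries. LAMP1 was at 162 FPKM in the control, 120 in library 1 and 105 in library 2, a mean log2 difference of -0.53 ± 0.39 (SE; limma adjusted p 0.831). LAMP2, whose splice forms serve membrane stability and chaperone-mediated autophagy, was at 9.82, 8.16 and 5.83 FPKM. SCARB2, a membrane receptor that carries a hydrolase to lysosomes, was at 35.2 FPKM in the control, 27.0 in library 1 and 15.2 in library 2. MCOLN1, the calcium channel mucolipin, was at 12.3, 10.7 and 6.88. In LAMP2, SCARB2 and MCOLN1 the lower value was that of library 2. CD63, a tetraspanin of late endosomes, was at 101, 91.1 and 119 FPKM, on opposite sides of the control.

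Further down this group, ABCA2, a lipid transporter, was at 36.4 FPKM in the control, 15.4 in library 1 and 23.2 in library 2, a mean log2 difference of -0.91 ± 0.42 (SE; limma adjusted p 0.712). LAMP3 was at 1.10 FPKM against 0.122 and 0.334 and was under the filter. LITAF, MFSD8 and ENTPD4 had mean log2 differences of -0.66, -0.57 and -0.62. The cystine exporter CTNS (3.67, 4.38 and 4.27 FPKM) and the Batten disease gene CLN3 (9.56, 11.4 and 10.3 FPKM) were slightly above the control in both libraries. Another annotated gene on the same strand shares 25.5% of the exonic bases of CLN3.

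CD68, a glycoprotein of late endosomes used as a macrophage marker, went against this group. It was at 1.30 FPKM in the control, 3.55 in library 1 and 7.50 in library 2, a mean log2 difference of 1.44 ± 0.49 (SE; limma adjusted p 0.582). The smallest whole reads behind it were 9, 25 and 56, or a common multiple of these. Of 13 macrophage markers 7 had values, none reached a mean of 1 FPKM, and their summed level was 1.73 FPKM in the control, 1.54 in library 1 and 1.76 in library 2. PTPRC (the leukocyte marker CD45), AIF1 and MRC1 were listed at 0 in the control and library 1. In GENCODE 29, 95.3% of the exonic bases of CD68 also belong to another gene on the same strand, AC016876.2, so reads could be split between them.

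**Figure D2:**
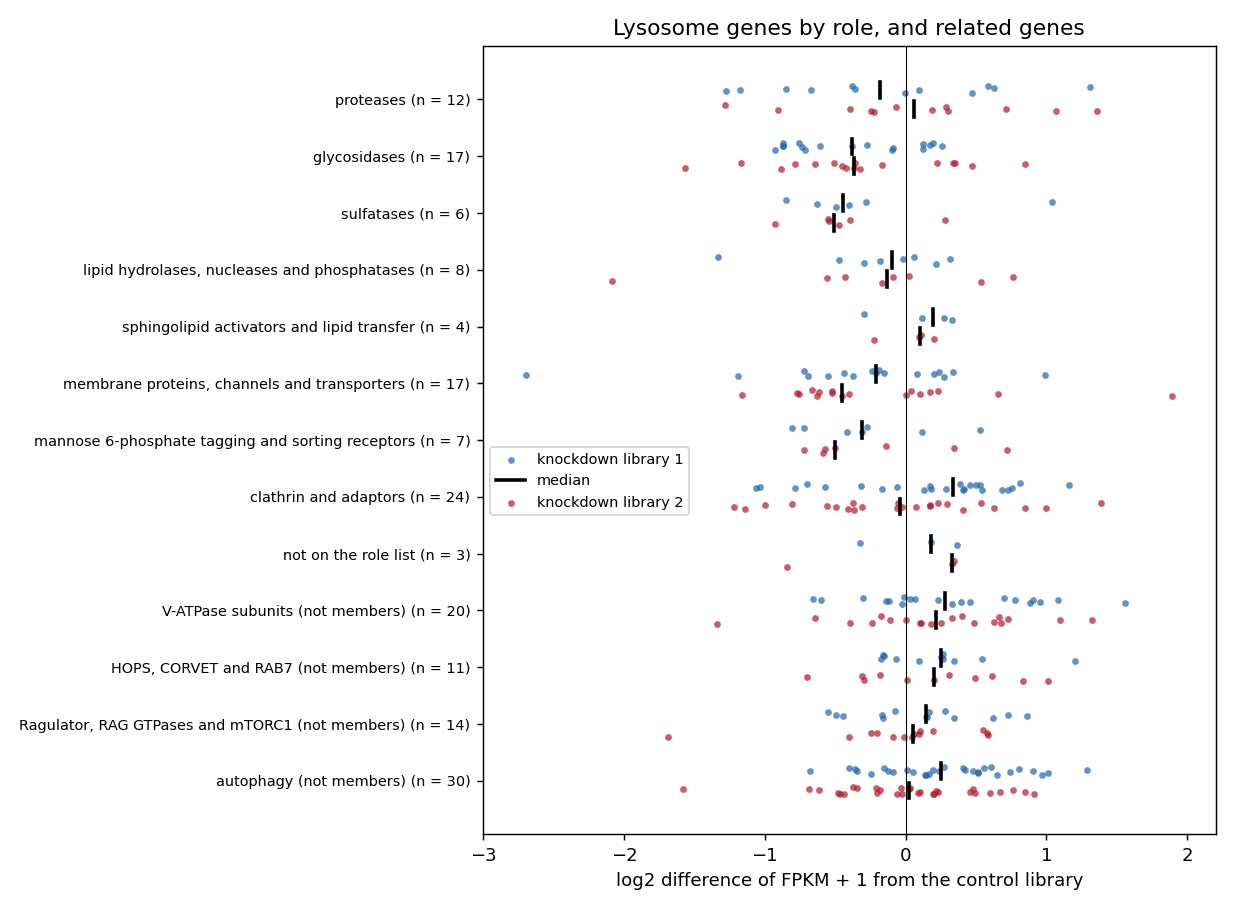
Log2 difference of FPKM + 1 from the control (x axis) for each tested gene by role (y axis), with knockdown library 1 in blue, knockdown library 2 in red and black bars at the median of each library. The medians of glycosidases (-0.38 and -0.37) and sulfatases (-0.45 and -0.51) lie left of the control, and those of V-ATPase subunits (0.28 and 0.22) lie right of it.

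Of 6 genes of mannose 6-phosphate tagging or sorting receptors, 3 were below the control in both libraries, 1 was above and 2 lay on opposite sides. The 3 below include SORT1, grouped here as a sorting receptor and not for the mannose 6-phosphate tag. The plot by role also counts SUMF1 in this group. SORT1, the sorting receptor sortilin, was at 11.9 FPKM in the control, 6.41 in library 1 and 7.62 in library 2, just past 1.5-fold in both. GNPTG, the gamma subunit of the tagging transferase, was at 34.5, 25.7 and 22.9 FPKM. GNPTAB, its catalytic subunits, was at 17.6, 19.2 and 12.1. Among the 2 mannose 6-phosphate receptors, IGF2R was at 21.5, 17.1 and 19.3 FPKM, below the control in both, and M6PR at 41.5, 60.3 and 52.9, above it in both. The 2 receptors therefore lay on different sides, with mean log2 differences of -0.23 ± 0.40 (SE) and 0.44 ± 0.39 (SE), and this difference was not tested. Genes annotated on the opposite strand share 40% of the exonic bases of M6PR and 41.8% of those of GNPTG. The strand setting of the counting is not given, so their reads are uncertain.

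Clathrin and adaptor genes, the largest role group, had 10 of 24 tested members above the control in both libraries and 7 below. Among all genes tested, 31.7% were above in both and 37.6% below. Median log2 differences were 0.34 in library 1 and -0.04 in library 2, and the median of the means, 0.10, was -0.0029 when all 26 were kept without the filter. CLTC, the clathrin heavy chain, was at 70.5 FPKM in the control, 125 in library 1 and 141 in library 2. Its mean log2 difference was 0.90 ± 0.39 (SE; limma adjusted p 0.687). The light chains CLTA (105, 145 and 124 FPKM) and CLTB (18.3, 31.6 and 24.6 FPKM) were also above the control in both.

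The AP-1 complex, which packages cargo at the trans-Golgi network, held 2 of the 5 members at least 1.5-fold above the control in both. Of its 8 tested subunits, 4 were above the control in both libraries, 2 below and 2 on opposite sides. AP1G1, its large gamma subunit, was at 12.4 FPKM in the control, 21.1 in library 1 and 34.0 in library 2. AP1S1, a small sigma subunit, was at 58.0, 131 and 105. Mean log2 differences were 1.06 ± 0.43 (SE) for AP1G1 and 1.001 ± 0.40 (SE) for AP1S1, with limma adjusted p of 0.643 and 0.628. Among their alternative subunits, AP1G2 was at 50.4, 33.5 and 22.4 FPKM and AP1S2 at 4.55, 4.33 and 1.78, both below the control. AP1S2 was close to the control in library 1 (log2 difference -0.06). AP1S3, another sigma subunit, was at 43.0, 63.1 and 42.3 FPKM, on opposite sides of the control. On the opposite strand, other annotated genes share 61.9% of the exonic bases of AP1G2, and the strand setting of the counting is not given in the sources used here. AP1B1, the large beta subunit, was at 29.8 FPKM in the control, 40.0 in library 1 and 12.3 in library 2.

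Of 5 tested subunits of AP-3, which routes cargo from endosomes to lysosomes, 1 was above the control in both libraries, 2 were below and 2 lay on opposite sides. AP3D1, its delta subunit, was at 52.5 FPKM in the control, 24.6 in library 1 and 59.4 in library 2. AP3S1, a sigma subunit, was at 35.7, 57.9 and 27.4, the opposite order. AP3B1, its beta subunit, was at 13.03, 17.3 and 13.8. The mu subunits AP3M1 (23.3, 20.6 and 17.9 FPKM) and AP3M2 (9.95, 5.72 and 6.78 FPKM) were below the control in both. GGA2, a monomeric adaptor that binds mannose 6-phosphate receptors, was at 21.9 FPKM in the control against 10.2 and 12.0. Its mean log2 difference was -0.92 ± 0.41 (SE; limma adjusted p 0.702). GGA1 and GGA3 lay on opposite sides of the control in the 2 libraries, with mean log2 differences of 0.05 and -0.19.

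**Figure D3:**
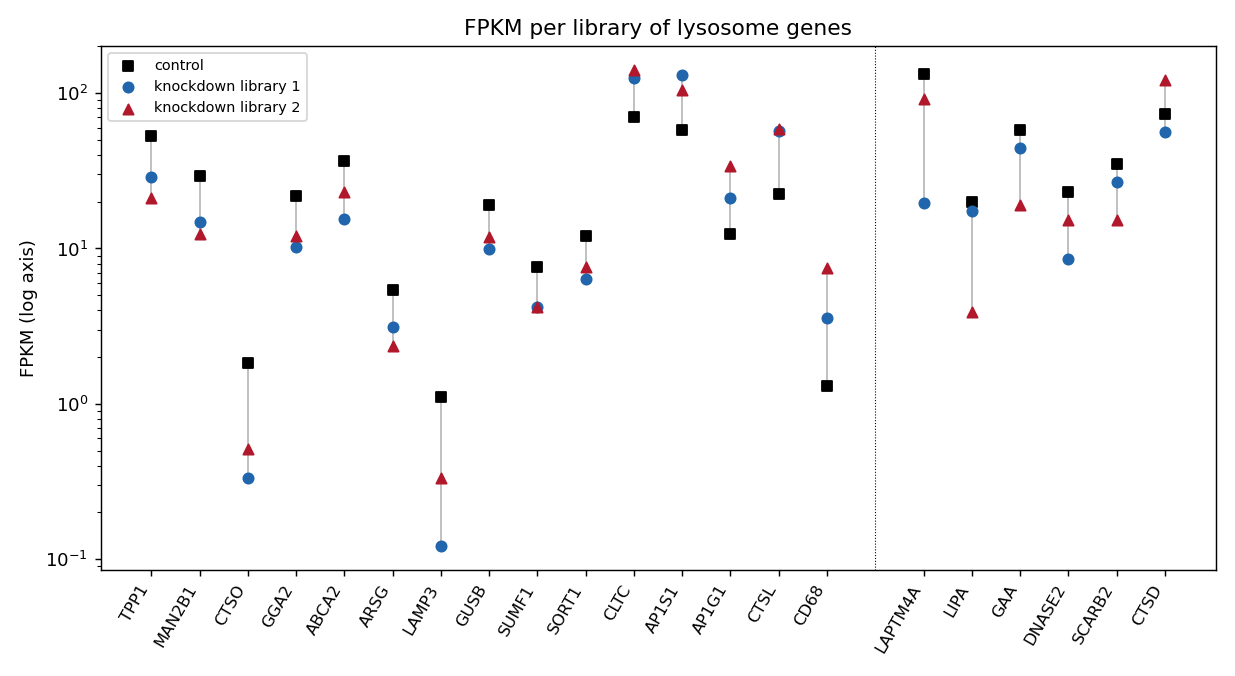
FPKM (y axis, log scale) in the control (black square), knockdown library 1 (blue circle) and knockdown library 2 (red triangle) for members at least 1.5-fold from the control in both knockdown libraries (left of the dotted line, 1 such member not shown; CTSO and LAMP3 were below the filter) and for 6 further members. CTSL rests on 2 close knockdown values (56.9 and 58.8), while LAPTM4A (19.5 and 91.6) and LIPA (17.3 and 3.90) rest on 1 library each.

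FUCA2, HYAL2 and HYAL3, also glycosidases, were members outside the role list. FUCA2, a fucosidase, was at 34.8, 39.5 and 44.4 FPKM. HYAL2, a hyaluronidase, was lower in both libraries at a mean log2 difference of -0.58, and HYAL3 was higher in both at 0.35.

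The knockdown libraries differed from each other in the members about as often as in other genes. Library 1 was at least 1.5-fold above library 2 in 14 of 98 members (14.3%, against 12.9% of all genes tested), and library 2 above library 1 in 14 (14.3%, against 13.8%). Among members on opposite sides of the control the widest gaps were those of AP1B1, AP3D1, CTSD, CTSC and AP3S1. The 49 genes of the 4 luminal hydrolase groups summed to 862 FPKM in the control, 747 in library 1 and 842 in library 2. The median log2 differences of the 43 that were tested were -0.30 and -0.32. Of these 43, 22 were below the control in both libraries, 8 above and 13 on opposite sides. The share of all genes tested below in both was 37.6%. HGSNAT, an acetyltransferase, is counted in these groups, and FUCA2, HYAL2 and HYAL3 are not. The higher sum in library 2 holds CTSD and CTSZ, which were above the control there.

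The 4 related lists of genes that are not members had medians above the control. Their counts stand beside 31.7% of all genes tested above the control in both libraries and 37.6% below. V-ATPase subunits, which acidify the lysosome, were above the control in both libraries in 9 of 20 tested and below in 3, with median log2 differences of 0.28 and 0.22. ATP6V0C, the proteolipid ring subunit, was at 58.0 FPKM in the control, 172 in library 1 and 147 in library 2, a mean log2 difference of 1.44 ± 0.39 (SE; limma adjusted p 0.494). ATP6V1D (16.8, 36.7 and 26.5 FPKM) and ATP6V1H (10.4, 18.6 and 23.5 FPKM), subunits of the catalytic sector and its regulator, were also at least 1.5-fold above in both. ATP6V1E2 (6.12, 3.52 and 1.82 FPKM) and TCIRG1 (15.9, 10.2 and 9.82 FPKM) were at least 1.5-fold below.

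In the HOPS, CORVET and RAB7 list, whose products act in the tethering of endosomes and lysosomes, 6 of 11 were above the control in both and 3 below. VPS33A was at 6.14 FPKM in the control, 15.5 in library 1 and 11.7 in library 2, a mean log2 difference of 1.02 ± 0.43 (SE; limma adjusted p 0.658). Of 30 autophagy genes tested, 13 were above in both and 5 below, with median log2 differences of 0.25 and 0.03. ATG16L1 (12.5, 26.2 and 23.4 FPKM) and GABARAPL2 (25.7, 64.3 and 39.4 FPKM) were at least 1.5-fold above in both. SQSTM1, the autophagy receptor p62, was at 148, 212 and 174 FPKM. In the Ragulator, RAG GTPase and mTORC1 list 4 of 14 were above in both, 2 below and 8 on opposite sides. limma called 0 genes of these 4 lists and of the TFEB family, where 5 genes had an unadjusted p under 0.05.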

How the data were processed

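RNA from HCT116 cells was sequenced in 3 libraries made with a TruSeq stranded mRNA kit, per the labels' protocols. The authors deposited 1 table of FPKM values for 15625 genes with Entrez numbers and KEGG pathway names. The tools were Trimmomatic and HISAT2 and the build GRCh38.p13, per the submitters' processing notes. Tool versions, the annotation and how reads were assigned to genes, strand included, were not given in the sources used here. Smallest whole reads were computed from the ratios of a gene's values across libraries once depth was removed (whole within a relative tolerance of 1e-09 in 100% of genes).

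Genes with a mean of at least 1 FPKM (11216) were tested on log2(FPKM + 1) with limma (version 3.58.1, R version 4.3.3, trended prior variance), knockdown against control, Benjamini-Hochberg adjustment over all genes and a threshold of 0.05. There was 1 residual degree of freedom and the estimated prior had 10.92, so the single control takes its spread from that between the knockdown libraries, and p-values measure only that spread. The step was tested on simulated data, where more than the nominal share of calls was false (17.9%). There it called 7.91% of the genes changed 2-fold and 65.4% of those changed 4-fold, so it missed most 2-fold changes.

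The members and gene lists were chosen with earlier results of these data known. Genes named are members at least 1.5-fold from the control in both libraries, the most abundant of each role, the 5 widest gaps across the control, and a list of 35 well-known members, with TFEB, TFE3, MITF, SQSTM1 and related genes past 1.5-fold. Some members these rules pick are counted but not reported by name here. Other members and genes in the text were chosen after their values were seen. Exon overlap and positions came from GENCODE 29. Overlaps are given for some genes only. Members without a stated overlap can also share exonic bases, such as CTSA (29.6%) and PPT1 (27.3%), both with the opposite strand. Alternatives were other pseudocounts, filters, scalings, limma settings, a 2-fold threshold and leaving out either knockdown library.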

Additional observations from a re-analysis of the deposited data

How the results depend on the processing

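With 1 control library, no setting could give a replicated comparison. limma called 0 members under all 8 alternatives that keep a test, with 5 to 10 members at an unadjusted p under 0.05 (9 as reported). The count at least 1.5-fold lower in both libraries, 9, was 3 with a pseudocount of 5, 5 with median-ratio rescaling and 0 at 2-fold. The count higher, 5, was 1 at 2-fold. Leaving out either knockdown library, which compares 1 library with 1 and has no test, gave 22 to 25 lower and 10 to 12 higher. Shares of all genes were not counted for the other pseudocounts, the rescaling or these single-library comparisons. The median log2 difference of the members, -0.192, was -0.112 with median-ratio rescaling. Relative to all genes it was -0.144, and -0.22 with a mean of at least 5 FPKM and -0.215 with quantile normalization. Among 51 named genes tested, 5 turned sign: CD63 (-0.064), NPC2 (-0.0217) and PSAP (-0.155) with quantile normalization, CTSZ (0.0543) with median-ratio rescaling, and SMPD1 (0.00574 with median-ratio rescaling, 0.219 with quantile normalization). The cause was not tested. No paired analysis was possible because the control library carries no replicate number. Depth limits CD68, which rests on as few as 9 reads in the control if the smallest whole reads are the true ones.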
